A study of Homo sapiens with 4 samples.

Results

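The Rab genes encode the largest group of small GTPases of the Ras superfamily, and 60 of the 27274 gene names on the array belonged to it. They were taken by name alone: every gene called RAB followed by a number and, where present, a letter was kept, which gave 73 of the 34127 gene probes. Where a gene had more than 1 probe (12 genes), the brightest one without an outlier spot gave its value. A value was obtained for 59 genes. The exception was RAB6A, a Golgi Rab, whose spot on the PC3 control array was an outlier; its log2 ratio in LNCaP was 0.26. The array uses old names, so that RAB7L1 is the present RAB29 and RAB9P1 a pseudogene now called RAB9BP1.

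Rab proteins work as switches on membranes. With GTP bound they recruit effectors (motors, tethers, kinases) that move a vesicle or dock it, exchange factors load the GTP, and activating proteins have it hydrolysed. To sit in a membrane, a Rab carries geranylgeranyl lipids, which Rab geranylgeranyl transferase attaches with the help of the escort proteins CHM and CHML. Other proteins take the Rab back out of the membrane. Geranylgeranyl is made in the mevalonate pathway, which statins block. Each compartment has its own members: RAB1 and RAB2 between ER and Golgi, RAB5 and RAB4 on early endosomes, RAB11 on recycling endosomes, RAB7 on late endosomes, RAB3 and RAB27 on secretory granules.

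RNA was measured in 2 human prostate cancer cell lines, LNCaP, which grows with androgen, and PC3, which grows without it. Both were kept in RPMI with 10% serum. Each line had an untreated control group (control; no vehicle is named in the labels) and a group exposed to 10 µM atorvastatin, a statin, for 24 h (ATO). Every group was 1 array, so no difference within a line has a replicate check, a p-value or an SD. The value of a probe is its intensity divided by the 75th percentile of its array (relative intensity), and a log2 ratio is the difference of 2 such values on the log2 scale. Levels can be compared between arrays for 1 gene, not between genes. The scanner's own error estimate for a log2 ratio was near 0.20 for a bright probe with 1 spot and reached 0.34 for dim Rab probes. It covers the reading of the spots and not the culture of the cells.

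All 4 arrays had between 48.5% and 52.9% of 43118 gene spots well above background, and none saturated (0 spots). A bright local background surrounded 0.348% of the gene spots on the LNCaP control array and 14.1% on the LNCaP ATO array, and 8.35% and 15.3% on those of PC3. All 10 line markers lay on the side of their line, such as KLK2, at least 210-fold higher in LNCaP, and CAV1, at least 382-fold higher in PC3. Of the 59 Rab genes, 41 were well above background on all 4 arrays and 10 on 1 to 3 arrays. The other 8 were not well above background on any array: RAB3C, RAB7B, RAB14, RAB33A, RAB33B, RAB38, RAB39 and RAB41.

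The results turn mainly on RAB4B, the gene furthest up in PC3 ATO, on RAB24, up in both lines, on RAB3B, the furthest down in PC3 among genes measured on both arrays, and on RAB5C, which was not seen in PC3. For the first 3, the 250 bases before the annotated start are shown, from RefSeq on GRCh38.p14, written 5′ to 3′ along the gene: RAB4B at chr19:40777997-40778246 on the plus strand, RAB24 at chr5:177303720-177303969 and RAB3B at chr1:51990701-51990950, both on the minus strand. Capitals mark CCAAT in RAB4B and CACGTG in RAB24.
RAB4B: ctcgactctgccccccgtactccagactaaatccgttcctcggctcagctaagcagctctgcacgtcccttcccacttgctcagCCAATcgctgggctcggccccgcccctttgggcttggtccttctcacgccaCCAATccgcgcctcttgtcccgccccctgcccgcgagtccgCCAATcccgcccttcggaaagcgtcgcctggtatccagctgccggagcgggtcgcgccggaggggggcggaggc
RAB24: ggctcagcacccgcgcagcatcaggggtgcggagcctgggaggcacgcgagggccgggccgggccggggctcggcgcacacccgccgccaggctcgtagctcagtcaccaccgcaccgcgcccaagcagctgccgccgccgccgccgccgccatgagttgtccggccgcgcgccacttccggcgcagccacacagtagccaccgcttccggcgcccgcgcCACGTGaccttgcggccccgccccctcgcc
RAB3B: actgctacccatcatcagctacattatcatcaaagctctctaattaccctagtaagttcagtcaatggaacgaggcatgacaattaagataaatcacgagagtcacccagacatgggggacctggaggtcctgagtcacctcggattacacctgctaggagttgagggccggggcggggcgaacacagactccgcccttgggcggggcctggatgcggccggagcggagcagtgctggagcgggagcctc

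The window of RAB24 was the richest in G and C, at 78.4%, against 68.4% for RAB4B and 56.8% for RAB3B. Windows of this kind were found for 46 of the 60 Rab genes (67 windows, since a gene can have several starts), and 4 motifs were searched in them on both strands. CACGTG, the E-box core, was in 7.46% of the Rab windows and in 6.34% of all 35116 windows. It occurred before RAB4A, RAB5A, RAB21, RAB24 and RAB31. CCAAT, the NF-Y box, was in 28.4% of the Rab windows and 32.0% of all. TGATGNAA, an element of ATF4, was in 1.49% and 3.14%, before RAB28 alone. The sterol response element, the fourth motif, was in none of the Rab windows (0) and in 0.125% of all. None of the motifs was in the RAB3B window. CACGTG and CCAAT were thus about as frequent in the Rab windows as in windows in general. TGATGNAA and the sterol response element are too rare for 67 windows to show a difference. A match or its absence says nothing of a factor at the gene.

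The probes of RAB4B and RAB5C are shown because both join separate parts of a gene: the ends of each 60-base probe lie further apart in the genome than its length. On hg18, the build of the deposited files, the RAB4B probe reaches over 147 bases at chr19:45984482-45984628 (plus strand) and the RAB5C probe over 916 bases at chr17:37531407-37532322 (minus strand).
RAB4B probe: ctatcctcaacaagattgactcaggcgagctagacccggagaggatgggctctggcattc
RAB5C probe: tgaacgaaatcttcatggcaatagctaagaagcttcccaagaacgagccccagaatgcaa

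In PC3, 10 of the 47 Rab genes with a value differed at least 1.5-fold between ATO and control, 5 higher and 5 lower, where 18.5% of all genes did (8.2% higher and 10.3% lower). Higher in ATO were RAB4B, RAB26, RAB2B, RAB43 and RAB24, and lower were RAB3B, RAB36, RAB23, RAB37 and RAB42. The count of 10 (21.3%) is near the background share, and its split depended on the scaling of the arrays: with the 50th percentile 15 were higher and 3 lower, and the pairs of counts were 3 and 5 with the spike-in probes, 8 and 4 with quantile, 8 and 5 with cyclic loess, and 3 and 1 after normexp. In bulk RNA, fewer cells that express a gene and less of its RNA per cell cannot be told apart.

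RAB4B drives fast return of receptors from early endosomes to the surface. Its relative intensity was 0.567 without and 1.32 with ATO in PC3, and 0.909 and 1.16 in LNCaP. ATO was the higher array in both lines, by 2.32-fold in PC3 (log2 1.22) and by 1.28-fold in LNCaP. The LNCaP log2 ratio was 0.35, with a scanner error of 0.21, and 0.14 after normexp. RAB4A, its close relative, had log2 ratios of 0.21 in PC3 and 0.07 in LNCaP. Of the genes next to RAB4B on the chromosome, EGLN2 had log2 ratios of 0.14 in PC3 and -0.01 in LNCaP, and SNRPA of -0.24 and -0.06, so that neither differed as RAB4B did.

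RAB26 serves the maturation of secretory granules. It measured 0.251 in PC3 control and 0.429 in PC3 ATO, against 7.46 and 7.96 in LNCaP. The PC3 arrays differed 1.71-fold (log2 0.77, and 0.53 after normexp) and the LNCaP arrays 1.07-fold, and both PC3 values lay far under both LNCaP values. RAB2B, which acts between ER and Golgi, was at 1.04 and 1.65 in PC3 control and ATO and at 1.33 and 1.59 in LNCaP. A further RAB2B probe had a smaller log2 ratio in PC3, 0.35 against 0.67 for the brighter probe, so that the 1.5-fold difference held for 1 of its probes.

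RAB43, a Rab of the Golgi, measured 1.92 in PC3 control and 3.02 in PC3 ATO, and 1.59 and 1.99 in LNCaP. RAB24, an unusual Rab linked to the late steps of autophagy, was at 2.32 and 3.57 in PC3 and at 4.72 and 6.05 in LNCaP. For both genes the ATO array was the brighter one in each line, by 1.57-fold and 1.54-fold in PC3 and by 1.25-fold and 1.28-fold in LNCaP. In PC3 both fell short of 1.5-fold with the spike-in probes, at log2 0.57 for RAB43 and 0.54 for RAB24, and after normexp, at 0.35 and 0.21. Their spots on the LNCaP ATO array lay in a bright local background, whose part in the LNCaP values was not tested. The next genes on the chromosome differed less. ISY1, beside RAB43, had log2 ratios of 0.09 in PC3 and 0.08 in LNCaP. Beside RAB24, those of PRELID1 were 0.04 and -0.12, and those of MXD3 -0.02 and -0.20.

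RAB3B is a Rab of regulated exocytosis. It stood at 0.423 in PC3 control and at 0.175 in PC3 ATO, and at 1.02 on both LNCaP arrays. The PC3 arrays differed 2.42-fold (log2 -1.28, and -0.68 after normexp) and the LNCaP arrays by less than the scanner error. Its spot on the PC3 control array lay in a bright local background. RAB3A and RAB3D, of the same subfamily, had log2 ratios of 0.13 and 0.57 in PC3, so the values of this subfamily lay on both sides of 0.

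RAB36, found at the Golgi, was at 0.248 in PC3 control and 0.126 in PC3 ATO, and at 1.16 and 1.37 in LNCaP. RAB23, known as a brake on Hedgehog signalling, was at 1.46 and 0.927 in PC3 and at 1.001 and 1.13 in LNCaP. Both were lower in ATO in PC3, by 1.96-fold and 1.58-fold, and by log2 0.24 and 0.18 higher in ATO in LNCaP. The LNCaP ratio of RAB23 was under its scanner error of 0.21 and was 0.003 after normexp. The direction in PC3 held under all 6 other scalings, but the 1.5-fold difference did not: after normexp the log2 ratios of RAB36 and RAB23 were -0.39 and -0.51, and with the 50th percentile that of RAB23 was -0.46. RAB37, a Rab of secretory granules, and RAB42 were well above background in PC3 control alone, at 0.244 and 0.227. Set against the dim value in PC3 ATO, they were at least 2.58-fold and 1.59-fold lower there (log2 bounds of -1.37 and -0.67). After normexp these bounds were -0.17 and -0.33, and that of RAB42 was also under 1.5-fold with the 50th percentile (-0.47) and quantile scaling (-0.56). The RAB37 spot on the PC3 control array also lay in a bright local background, and a further probe of this gene was dim.

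**Figure D1:**
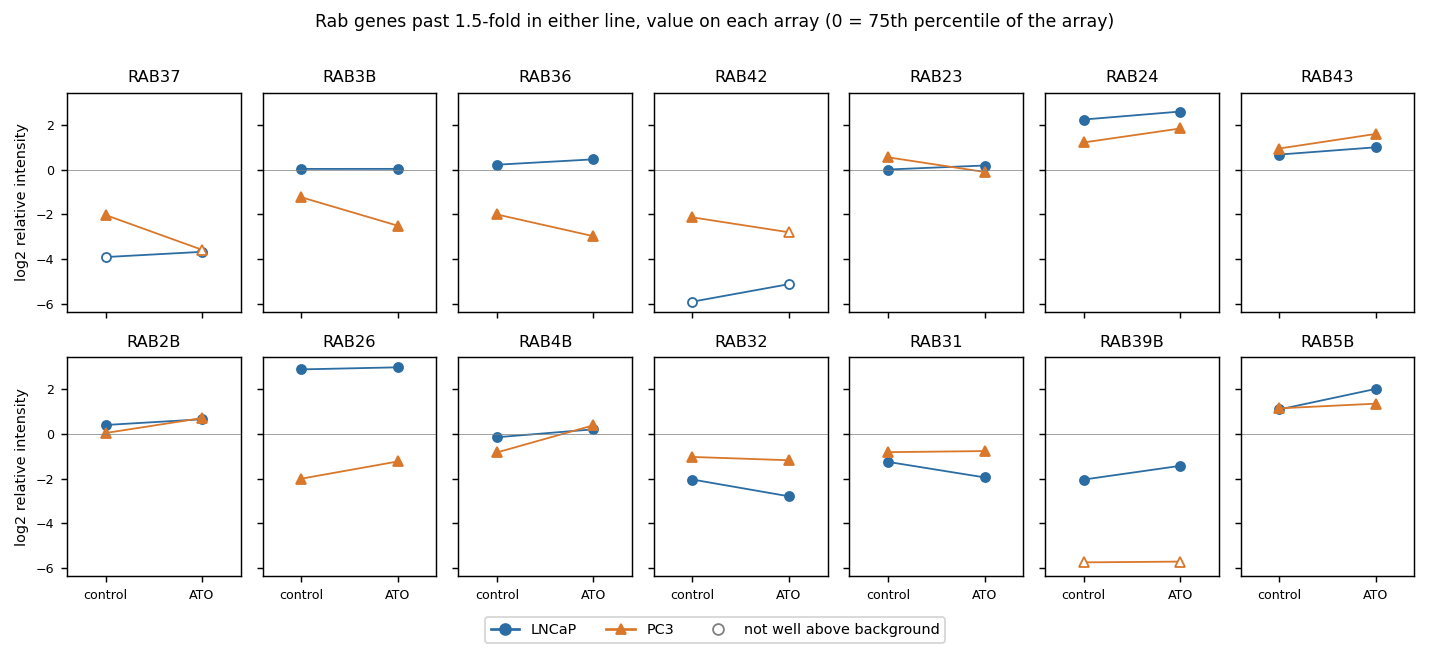
Value of the 14 Rab genes past 1.5-fold in either line, on each of the 4 arrays. The vertical axis is log2 relative intensity (0 is the 75th percentile of the array), circles are LNCaP, triangles PC3, and open symbols were not well above background; each point is 1 array, so there are no error bars. RAB4B, RAB24 and RAB43 lie higher with ATO in both lines, whereas RAB3B and RAB36 lie lower with ATO in PC3 only.

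Taken with or without a 1.5-fold difference, the Rab genes in PC3 lay mostly on the higher side. Among the 43 measured on both PC3 arrays, of which 8 were past 1.5-fold, 32 (74.4%) were above 0, where 51.3% of all genes measured this way were. A log2 ratio of 0.2 or more was found for 24 of them (55.8%, against 28.4% of all genes), and one of -0.2 or less for 5 (11.6%, against 27.0%). The median over the 47 genes with a value was 0.20, against -0.01 for all genes. Every alternative scaling, filter or probe choice that was run kept the Rab median above that of all genes, by 0.115 (no filter on dim probes) to 0.219 (median over the probes of a gene). RAB3D, which serves granule secretion, RAB27B, which serves the release of granules and exosomes, and RAB25, the epithelial relative of RAB11, each had a log2 ratio of 0.57. RAB5A, the master regulator of early endosome fusion, had 0.56.

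By compartment, the median log2 ratio in PC3 was highest for the Rabs of recycling and delivery to the surface, at 0.30. The rank depended on the scaling. With quantile scaling the median of regulated secretion was higher, at 0.303 against 0.298. After normexp that of ER and Golgi was nearly equal, at 0.2750 against 0.2752. In the main scaling, regulated secretion had a median of 0.18, with 5 of 7 above 0. Of the recycling and surface Rabs, 7 of 8 were above 0 and none was past 1.5-fold (0), the 5 genes past it on the higher side being of other compartments. This count depended on the scaling: RAB25, at 0.57, was past 1.5-fold under 4 of the 6 other scalings. RAB11A and RAB11B, of the recycling endosome, had log2 ratios of 0.38 and 0.40. RAB10, which delivers glucose transporters to the surface, had 0.31, RAB13, of tight junctions, had 0.24 and RAB15, of endocytic recycling, had 0.30. RAB8A, of polarised delivery and cilia, was the one below 0, at -0.06.

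Of the Rabs of ER and Golgi, 6 of 9 were above 0 in PC3, with a median of 0.20. RAB1A, needed for transport from ER to Golgi, had a log2 ratio of 0.40. A further, dimmer probe gave 0.74, past 1.5-fold, so that its probes differed in the call. RAB2A had 0.41, RAB1B 0.20 and RAB18, of ER and lipid droplets, 0.20. Of the early endosome Rabs, 7 of 10 were above 0 with a median of 0.14, and RAB22A, which sorts cargo in endosomes, had 0.52 beside RAB5A and RAB4B. RAB21, a Rab of integrin traffic, had -0.03, and RAB20, of phagosomes, had -0.18.

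The late endosome and lysosome Rabs lay the other way, with 2 of 6 above 0 and a median of -0.17. With the 50th percentile, which moved the median of all genes to 0.19, 4 of the 6 were above 0 and their median was 0.03. Relative to all genes, their median stayed lower under each of the 6 other scalings, at -0.11 to -0.21. RAB7A, which takes late endosomes to lysosomes, had a log2 ratio of -0.22, and RAB7L1, which acts with the kinase LRRK2 at lysosomes, had -0.19. RAB32 was at -0.15, and RAB9B was a bound of -0.29, its probe being dim in PC3 ATO. The scanner errors of RAB7A, RAB7L1 and RAB32 were 0.20, 0.23 and 0.22, near or above the size of their ratios. RAB9A, which returns cargo from late endosomes to the Golgi, had 0.49 and with RAB24 made up the members above 0. With 6 to 10 genes to a compartment and 1 array to a group, the differences between compartments were not tested.

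In LNCaP, 4 of the 47 Rab genes with a value were past 1.5-fold, 2 higher and 2 lower, where 4.75% of all genes were (2.77% higher and 1.99% lower). RAB5B, an early endosome isoform of RAB5, measured 2.15 in LNCaP control and 4.08 in LNCaP ATO, and 2.23 and 2.58 in PC3. LNCaP ATO was thus the one array that stood apart, 1.89-fold over its control. The RAB5B spot on that array lay in a bright local background, whose part in the difference was not tested. RAB39B, a gene best known from neurons, was at 0.244 and 0.374 in LNCaP, 1.53-fold apart (log2 0.62, and 0.38 after normexp), and was not well above background on either PC3 array.

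RAB31 carries cargo from the Golgi to endosomes. It was at 0.423 in LNCaP control and at 0.261 in LNCaP ATO, 1.62-fold lower, and at 0.572 and 0.592 in PC3. RAB32, of lysosome-related organelles such as melanosomes, was at 0.245 and 0.145 in LNCaP, 1.68-fold lower, and at 0.493 and 0.445 in PC3. After normexp the log2 ratios of RAB31 and RAB32 were -0.12 and -0.31, against -0.69 and -0.75, and that of RAB31 was -0.56 with the spike-in probes, so that these calls were lost. For RAB31 and RAB32, the scanner error of the LNCaP log2 ratio was 0.29 and 0.31, since their probes were dim. The probes of RAB5B, RAB31 and RAB32 lay in the lower part of the array, where 28.2% of the LNCaP ATO spots had a bright local background, and that of RAB39B in the upper part.

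The remaining Rab genes differed little in LNCaP. Over all 47 Rab genes with a value, the 4 included, the median was 0.07, against 0.00 for all genes. Above 0 were 30 of the 47 log2 ratios (63.8%), against 48.6% of all genes. Scaled on the spike-in probes, 2 genes were higher and 1 lower past 1.5-fold, and after normexp 1 was higher and 0 were lower. RAB7A, at a log2 ratio of -0.44, was the next below the 4 named, and its spot on the LNCaP ATO array also had a bright local background. It was lower in ATO in both lines, under all 6 other scalings too.

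**Figure D2:**
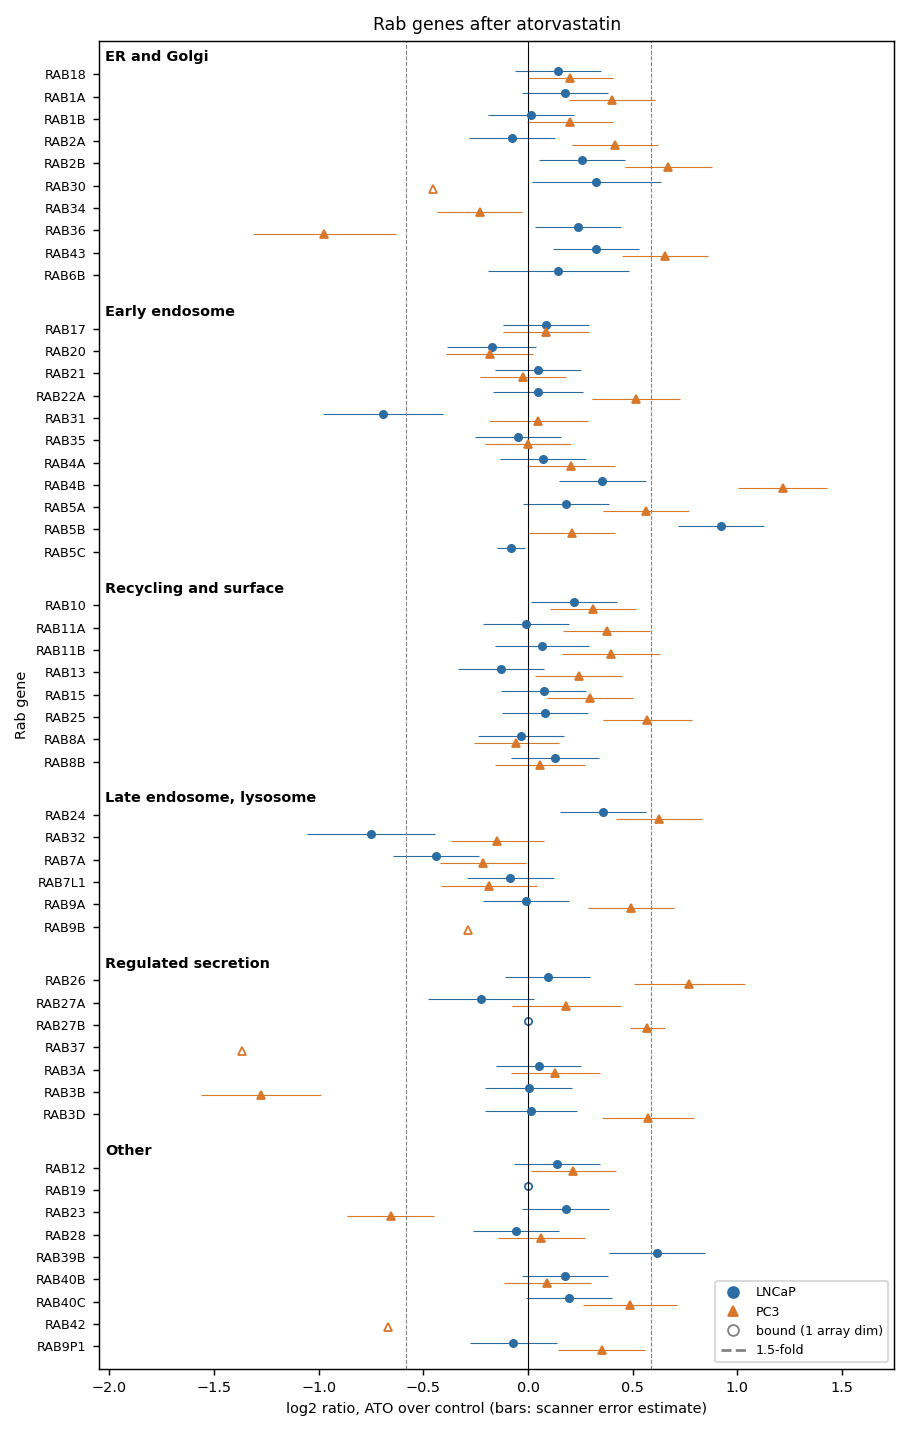
Log2 ratio of ATO over control for each Rab gene with a value, by compartment, in LNCaP (circles) and PC3 (triangles). Bars are the scanner's error estimate for 1 array against 1 array, open symbols are bounds, and dashed lines mark 1.5-fold; an open symbol at 0 is a bound that gave no difference. In PC3, 7 of 8 recycling Rabs lie above 0 and 4 of 6 late endosome and lysosome Rabs lie below, the latter not with the 50th percentile, under which 4 of the 6 were above 0.

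Of the 43 Rab genes with a value in both lines, none was past 1.5-fold in both (0), where 1.28% of all genes were, so that this count does not set the Rabs apart. Over all Rab genes with a value in a line, 10 were past 1.5-fold in PC3 and 4 in LNCaP, against 18.5% and 4.75% of all genes. RAB37 and RAB42, among the 10, had no value in LNCaP, and RAB39B, among the 4, had none in PC3. Of the 41 measured on all 4 arrays, 23 were above 0 in both lines, 6 below 0 in both, 8 above 0 in PC3 only and 4 in LNCaP only. A log2 ratio of at least 0.3 in both lines was found for 3 (RAB4B, RAB24 and RAB43, all higher) and of -0.3 or less for none (0). Among all genes, 2.21% were this far up in both lines and 2.15% this far down. The count of 3 depended on the scaling. After normexp RAB43 kept it, at 0.36 in LNCaP and 0.35 in PC3. RAB4B was then at 0.14 in LNCaP, and RAB24 at 0.24 in LNCaP and 0.21 in PC3.

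The design allows 1 test, of ATO over both lines with line as a block (limma, 1 residual degree of freedom). None of 43 Rab genes tested (0) passed an adjusted p of 0.05, and 0% of the 11902 genes tested did. The lowest adjusted p of a Rab gene was 0.762. An unadjusted p under 0.05 was given for 3 Rab genes and for 4.47% of all genes. These were RAB24, with a mean log2 difference of 0.49 (95% interval 0.06 to 0.92), RAB43, with 0.49 (0.04 to 0.94), and RAB4B, with 0.79 (0.02 to 1.55). All were higher in ATO in 2 of 2 lines, and all failed the correction, with an adjusted p of 0.762 each. The test reads the same 4 arrays as the ratios above, so it is no separate support for these 3 genes. Leaving out genes with a bright local background, RAB24 and RAB43 among them, left 1 of 33 Rab genes with an unadjusted limma p under 0.05.

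Between the untreated lines, 21 of the 51 Rab genes with a value differed at least 2-fold, 8 higher in PC3 and 13 lower, where 39.6% of all genes did (20.6% higher and 19% lower). The split of the calls followed the scaling, with 5 higher and 17 lower under the 50th percentile, 13 and 7 under the spike-in probes, and 3 and 10 after normexp. At 4-fold, 7 remained, 2 higher and 5 lower, against 16.1% of all genes (10.3% higher and 5.71% lower). The direction of the 7 held under all 6 alternative scalings, but 2 were not past 4-fold under each of them. RAB42, as a log2 bound, was at 1.60 with the 50th percentile, 1.71 with quantile scaling, 0.86 after normexp and 1.94 in the deposited table. RAB36 was at -1.72 with the spike-in probes and -1.74 after normexp.

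Higher in PC3 were RAB34, of macropinosomes and cilia, and RAB42. RAB34 was at 4.16 and 3.54 on the PC3 arrays (control, then ATO) and was not well above background in LNCaP, at 0.0137 and 0.0226, a difference of at least 75.6-fold between the controls. RAB42 was at 0.227 in PC3 control and was dim in LNCaP, at 0.0166 and 0.0285, at least 4.12-fold apart.

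Lower in PC3 were 3 Rabs of epithelial recycling and regulated secretion, the Golgi Rab RAB36 and RAB5C. RAB25 was at 12.1 and 12.8 in LNCaP (control, then ATO) and at 0.657 and 0.974 in PC3, 18.5-fold apart in the controls. RAB26 was 29.7-fold lower in PC3 control than in LNCaP control. RAB3A, a Rab of synaptic vesicles, was at 5.9998 and 6.21 in LNCaP and at 0.799 and 0.874 in PC3. RAB36 was 4.68-fold lower in PC3. In each of the 5, both LNCaP arrays were higher than both PC3 arrays.

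Within subfamilies the lines parted in both directions. RAB27B was 3.11-fold higher in PC3 (log2 1.64, and 0.62 after normexp) and RAB27A had a log2 ratio of -0.27 (0.24 with the spike-in probes), RAB4A was 2.90-fold lower in PC3, and of the 3 measured RAB3 genes RAB3A and RAB3B were 7.51-fold and 2.41-fold lower in PC3 and RAB3D had -0.05. RAB12, which sends transferrin receptor to lysosomes, and RAB15 were 2.90-fold and 2.38-fold higher in PC3. Among the Rabs of ER, Golgi and endosomes, log2 ratios were 0.64 for RAB1A and 0.71 for RAB5A, which passed 2-fold with the spike-in probes (1.15 and 1.22). RAB2A had -0.95 and RAB18 -0.89, which passed 2-fold with the 50th percentile (-1.40 and -1.33). RAB11A had -1.11, and fell short of 2-fold with the spike-in probes (-0.60), cyclic loess (-0.96) and normexp (-0.98). The log2 ratios of RAB1B, RAB7A and RAB8A were -0.05, 0.36 and 0.26. The sign for RAB1B changed with 4 of the 6 scalings, and those for RAB7A and RAB8A with the 50th percentile, at -0.08 and -0.18.

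**Figure D3:**
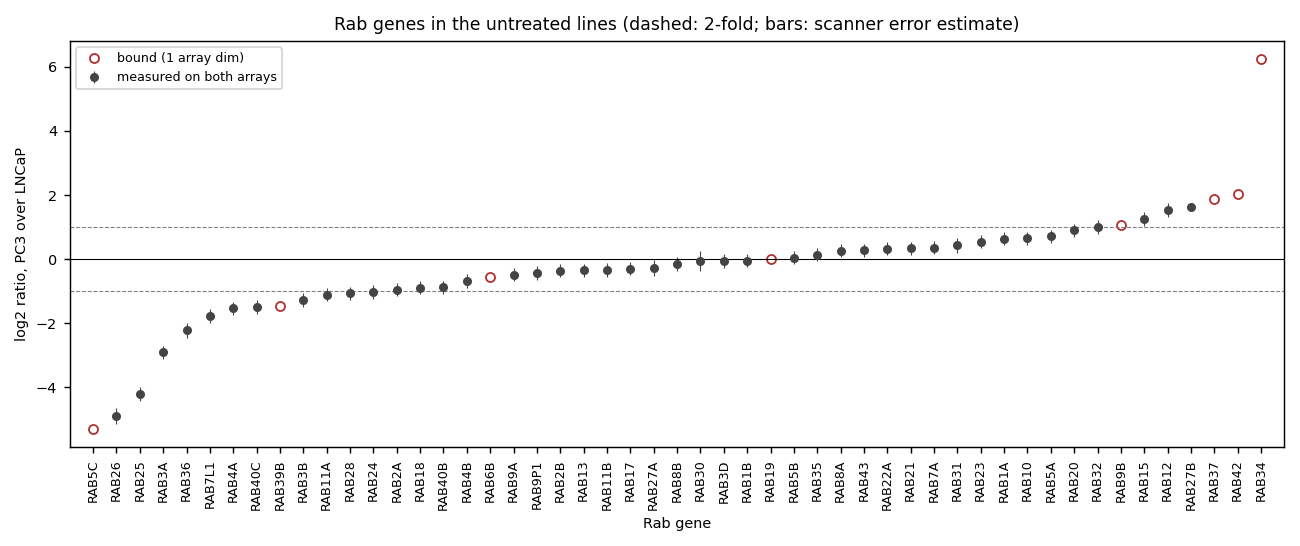
Log2 ratio of PC3 control over LNCaP control for the 51 Rab genes with a value, in rising order. Bars are the scanner's error estimate for 1 array against 1 array, open symbols are bounds, and dashed lines mark 2-fold. RAB34 stands alone at the top, and RAB5C, RAB26 and RAB25 stand apart at the bottom.

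RAB5C shares the work of RAB5A and RAB5B on early endosomes. Its probe was printed in 10 spots and measured 3.46 in LNCaP control and 3.27 in LNCaP ATO. On the PC3 arrays it was not well above background, at 0.0192 and 0.0210, at least 39.0-fold lower in the control. RAB5A and RAB5B were measured on all 4 arrays and did not share this difference, with log2 ratios of 0.71 and 0.05 between the controls.

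The genes beside RAB5C on chromosome 17 were examined after its value was seen. A stretch was drawn outward from RAB5C until a probe well above background in PC3 was met on each side. Only probes free of outlier spots and well above background on both LNCaP arrays were used. It held 7 probes of 6 genes (KAT2A, RAB5C, GHDC, STAT5B, STAT3 with 2 probes, and PTRF), over 289 kb from position 37518761 to 37808062 of hg18. That none of these was well above background on a PC3 array follows from the way the stretch was drawn. KAT2A, a histone acetyltransferase, was at 11.1 and 10.5 in LNCaP and at 0.0177 and 0.0202 in PC3. The brighter probe of STAT3, a transcription factor of cytokine signalling, was at 2.19 and 2.15 in LNCaP and at 0.0238 and 0.0259 in PC3. The stretch ended at ZNF385C on one side and, on the other, at a second probe of PTRF, which measured 4.33 and 5.04 in PC3. The PTRF probe inside the stretch was faint in LNCaP too, at 0.127 and 0.134, so that PTRF itself was measured in PC3 by its brighter probe. Within 600 kb of RAB5C, 10 of 35 probes measured in LNCaP were dim on both PC3 arrays, against 7.72% of 15103 such probes on the whole array. The 10 include RAB5C, whose value led to this window, and the rest of the stretch. The difference between the shares was not tested.

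**Figure D4:**
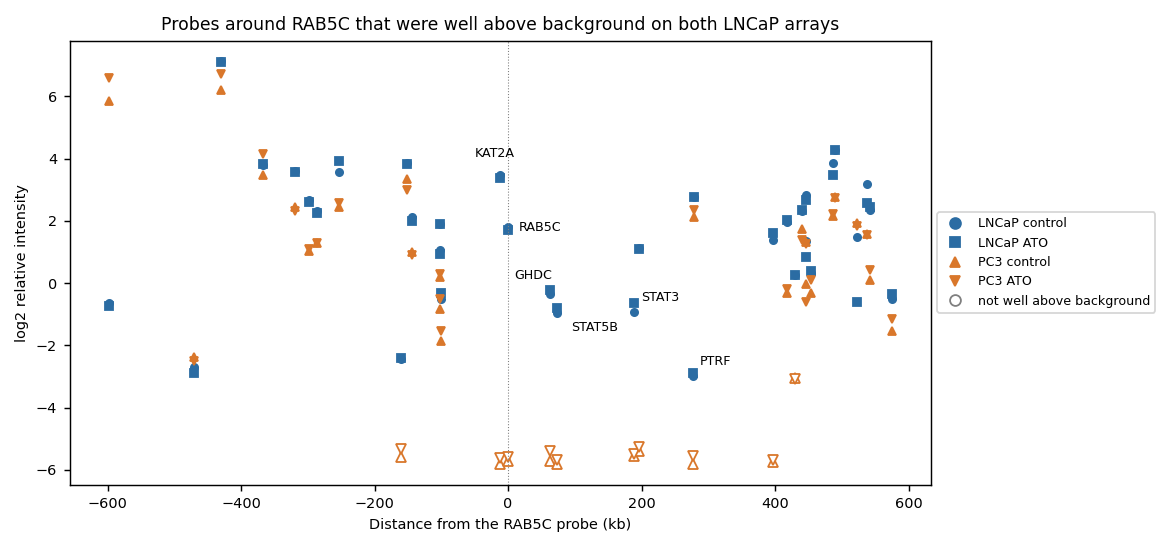
Log2 relative intensity of probes within 600 kb of the RAB5C probe that were well above background on both LNCaP arrays, by distance in kb along chromosome 17. Blue symbols are the LNCaP arrays, orange the PC3 arrays, and open symbols were not well above background. The PC3 values of RAB5C and the 6 further probes of the stretch lie near the bottom of the plot, the next probe on either side is measured in PC3, and 3 probes further out are again dim.

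The machinery that gives Rabs their lipid and takes them off membranes was listed as 11 genes, all of which had a value. In PC3, 9 of them were above 0, with a median of 0.35. GGPS1, which makes the geranylgeranyl donor, was at 0.247 and 0.387 in PC3 (control, then ATO) and at 0.824 and 0.901 in LNCaP. ATO was the brighter array in both lines, past 1.5-fold in PC3 (log2 0.65) and not in LNCaP (log2 0.13), where its spot on the ATO array lay in a bright local background.

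FDPS, which makes the farnesyl precursor, had log2 ratios of 0.49 in PC3 and 0.54 in LNCaP. The transferase itself differed less: RABGGTA, its alpha subunit, had 0.35 in PC3 and -0.07 in LNCaP, and RABGGTB, its beta subunit, had -0.06 and 0.02. The escort protein CHM had -0.34 in PC3 and 0.57 in LNCaP, with a bright local background on the PC3 control and LNCaP ATO arrays, and CHML had 0.02 and -0.03. GDI2 had 0.30 and -0.10, and RABIF, a chaperone of Rabs, had 0.21 and -0.34.

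For the regulators and partners of Rabs, the shares past 1.5-fold in PC3 can be set beside the 18.5% of all genes (8.2% higher and 10.3% lower), and the differences from it were not tested. Of 35 exchange factors with a value, 2 were higher and 2 lower (11.4% in all). The largest ratios among those measured on both PC3 arrays were those of RIN3, an exchange factor of RAB5, at -0.98, DENND2C at 0.66 and RGP1, of the RAB6 exchange complex, at 0.60. Of 34 activating proteins, 3 were higher and 1 lower (11.8%), among them TBC1D2 at -0.81, TBC1D10A at 0.74 and TBC1D19 at 0.66. Of 48 effectors, 5 were higher and none lower (10.4%). MICAL1, which oxidises actin, had 0.85, PLEKHM1, which tethers late endosomes and lysosomes, had 0.83, and GOLGA2, the Golgi tether GM130, had 0.83. In LNCaP, GOLGA2 had 0.38, RIN3 had no value, and the 7 other genes named here lay between -0.10 and 0.13. The GOLGA2 spots on the PC3 control and LNCaP ATO arrays lay in a bright local background, whose part in both ratios was not tested.

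The Ras and Arf families of small GTPases were read in the same way. Of 18 Ras genes with a value in PC3, 2 were higher and 1 lower (16.7% in all), with a median of 0.16. Of 19 Arf genes 1 was higher and 1 lower (10.5%), with a median of 0.32. Both shares are below the 18.5% of all genes. The Arf median was above the Rab median of 0.20, except after normexp, where the Arf median was 0.15 and the Rab median 0.17.

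**Figure D5:**
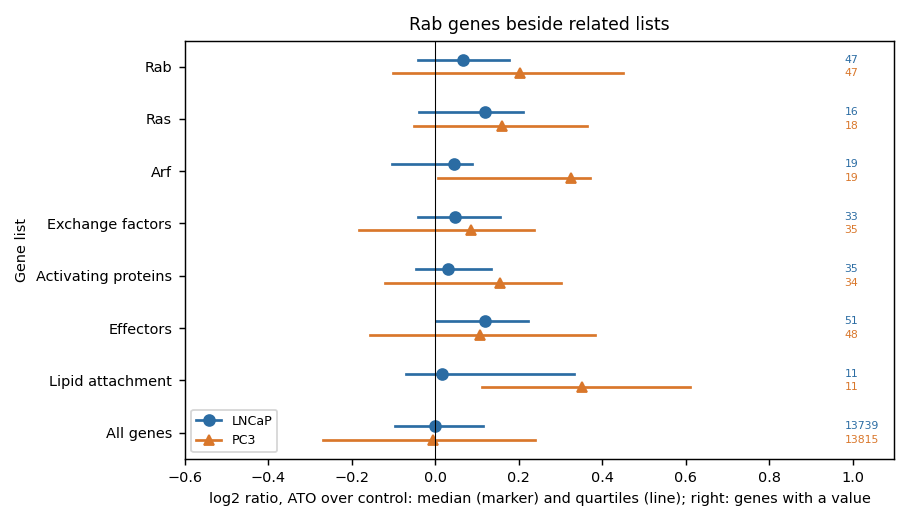
Median (marker) and quartiles (line) of the log2 ratio of ATO over control for Rab genes, related gene lists and all genes, in LNCaP (circles) and PC3 (triangles). The number on the right is the count of genes with a value, and the spread is over genes, not over samples. In PC3 the Rab median of 0.20 lies above that of all genes and below that of the Arf family, except after normexp, where the Arf median was the lower.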

How the data were processed

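RNA of 4 samples was hybridised to 1-colour Agilent arrays, 1 array per group (LNCaP and PC3, control and ATO). The spot intensity was obtained by the authors with Agilent Feature Extraction 9.5.3.1 per the file headers: the background was subtracted, a trend over the slide was corrected, and signals not above background were replaced by a surrogate. Probe positions are on hg18, the build of the deposited files. The table of ratio values deposited by the authors equals the intensity over the 75th percentile of its array within 2% for at least 99.5% of probes above 1. It served as an alternative.

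After removal of outlier spots, the mean log2 intensity of each probe was taken relative to the 75th percentile of its array. The scanner's call "well above background" was required of over 50% of the spots of a probe, and on 1 array or both for a gene to have a value in a comparison. With the call on 1 array only, the value is a bound, written "at least": the dim array then entered with its own value or with its lowest well-above-background value, whichever was larger. Calls were made at 1.5-fold for ATO and 2-fold between lines. The number of arrays limits the precision, and position on the slide cannot be told apart from group. All groups share 1 slide and scan, and the controls enter 2 comparisons each.

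The limma test (limma 3.58.1, R 4.3.3) fitted ATO over both lines with line as a block, two-sided, on genes with the call on both control or both ATO arrays, adjusted by Benjamini-Hochberg over all of these, and was tested on simulated data. Whether the lines' samples were separate cultures is not stated, so a p-value measures the spread between these arrays only. Tables were handled in Python 3.11.15.

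Values on all 4 arrays were given for Rab genes past 1.5-fold in a line, past 4-fold between lines, or with a log2 ratio of 0.3 or more the same way in both lines. Genes of lipid attachment are named whatever their values, and for the other lists up to 3 genes with the largest PC3 ratios among those measured on both PC3 arrays were named. The genes around RAB5C, RAB4B, RAB24 and RAB43 were chosen after values were seen. Members and lists were chosen with earlier results of these data known. Lists held 39 exchange factors, 43 activating proteins, 58 effectors, 19 Ras and 22 Arf genes. A list and some single genes are not reported here. The alternatives were other scalings (50th percentile, spike-in probes, quantile, cyclic loess, normexp with an offset of 50, deposited ratios), other probe and spot choices, other filters and stricter thresholds.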

Additional observations from a re-analysis of the deposited data

Results flagged for a closer look

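Of the 12 Rab genes measured on all 4 arrays with opposite signs in the lines, RAB23 and RAB36 were singled out. They were past 1.5-fold in PC3 and differed the other way in LNCaP by more than the spread between copies of a probe (log2 0.136). That spread is of values on 1 array and not of a ratio of 2 arrays. The LNCaP log2 ratio of RAB23, 0.18, was under its scanner error of 0.21 and was 0.003 after normexp. That of RAB36 was 0.24, with a scanner error of 0.21. The log2 ratio in PC3 minus that in LNCaP was -0.84 for RAB23 and -1.21 for RAB36. With 1 array to a group, the difference between the lines was not tested.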

How the results depend on the processing

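No paired analysis was possible because each group held 1 array and the labels give no replicate numbers, other than the limma test, which pairs ATO with control by line. With 1 array to a group no replicate could be left out. The count of 4 Rab genes past 1.5-fold in LNCaP was 1 after normexp, 15 with no filter on dim probes and 0 at 2-fold. The count of 10 in PC3 was 18 with the 50th percentile, 4 after normexp and 3 at 2-fold. Between the untreated lines, the count of 21 was 13 after normexp and 7 at 4-fold. The PC3 median of 0.20 became 0.40 with the 50th percentile, which moved the median of all genes to 0.19. The median between the untreated lines, -0.15, was -0.60 with the 50th percentile, 0.24 with the spike-in probes and -0.0060 with cyclic loess, while that of all genes was -0.49, 0.38 and 0.05. Keeping to the upper part of the array, an alternative chosen after seeing the data, gave counts of 1, 4 and 8 over 23, 23 and 25 genes, and a median of -0.35 between the untreated lines. No Rab gene passed the limma test (0) under any of 11 alternatives; an unadjusted p under 0.05 was given for 0 to 5 Rab genes. Over the called Rab genes, 234 values under the alternatives moved by less than the spread between copies of a probe, 111 moved further and none changed sign. The cause of these shifts was not tested. Signal over background limits what can be said of the 8 Rab genes that were not well above background and of those with bounds; why they were dim was not tested.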
